A study of Mus musculus with 6 samples.

Results

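Transcript levels of 10 genes were followed: the 4 MiT/TFE transcription factor genes Mitf, Tfeb, Tfe3 and Tfec, the folliculin complex genes Flcn, Fnip1 and Fnip2, and the Rag GTPase genes Rraga, Rragc and Rragd. They were chosen by name, as the factors and the folliculin and Rag proteins that control them, and matched to the count tables by Ensembl identifier without its version. Each name matched a single row among 56691 gene rows, and all 10 passed the low-count filter that left 14856 genes for testing. The cells were primary macrophages differentiated in culture from mouse bone marrow. Marrow of 3 mice (a, b and c) gave a culture for each treatment, seeded on day 4, and each library is named here by treatment and mouse (DMSO b). The 3 treated cultures received 2 µM thiothixene, an antipsychotic that blocks dopamine receptors, for 24 h at day 6, and the 3 control cultures received the solvent DMSO for the same time. The sources used here give no strain, genotype, sex or age of the mice, and the labels name no transgene. The title of the series names dopamine antagonism, vitamin A and continued uptake of dead cells, and the comparison described is thiothixene against DMSO.

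MiT/TFE factors are basic helix-loop-helix leucine zipper proteins that bind E-box DNA, and they switch on lysosome and autophagy genes. In fed cells, heterodimeric Rag GTPases on the lysosome, built from RagA or RagB with RagC or RagD, hold these factors at the membrane, where the kinase complex mTORC1 phosphorylates them and keeps them in the cytosol. Folliculin, with FNIP1 or FNIP2, is the GTPase-activating protein for RagC and RagD and so enables that phosphorylation. In macrophages these factors are known for roles in lysosome function and osteoclast formation, and control of their location by phosphorylation is not visible in RNA counts.

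The family relation of the 4 factors is shown by the 60-base coding stretch of Mitf that Tfeb, Tfe3 and Tfec together match best without gaps. Within it 46 bases are the same in all 4 genes, and these are in capitals. The letters are from GENCODE M21 transcripts on GRCm38, and each stretch crosses an exon junction, so the genomic span holds an intron. They lie at chr6:98010463-98013720 on the plus strand (Mitf, exons 8 and 9), chr17:47788977-47789712 on the plus strand (Tfeb, exons 6 and 7), chrX:7771063-7772500 on the plus strand (Tfe3, exons 8 and 9) and chr6:16835298-16840476 on the minus strand (Tfec, exons 5 and 6).
Mitf: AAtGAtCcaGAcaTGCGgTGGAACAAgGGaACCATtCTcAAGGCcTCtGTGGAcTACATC
Tfeb: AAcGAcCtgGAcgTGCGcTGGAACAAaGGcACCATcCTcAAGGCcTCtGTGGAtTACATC
Tfe3: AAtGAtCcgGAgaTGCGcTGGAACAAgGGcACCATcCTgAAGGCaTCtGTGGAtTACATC
Tfec: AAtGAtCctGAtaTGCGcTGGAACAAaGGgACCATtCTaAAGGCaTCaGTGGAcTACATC

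The stretches differ from that of Mitf at scattered bases, with 50 of 60 bases shared by Tfeb and 52 by Tfe3 and by Tfec. Over the whole transcript with the longest coding sequence of each gene, untranslated parts included, the longest identical run between any pair of the 4 was 29 bases (Tfeb and Tfe3), and it was 20 bases for Fnip1 with Fnip2 and for Rragc with Rragd and 26 for Rraga with Rragb. Reads were 150 bases at each end and thus longer than every one of these runs in the transcripts compared.

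E-boxes in the promoters of the regulators are shown because several genes of this group are themselves known MiT/TFE targets. The RefSeq promoter table for GRCm38.p6, with 250 bases before and 50 after each start site, held 15 windows for the 10 genes. The palindrome CACGTG was present in 2 of these windows, of Fnip1 and Rragc, and in 7.15% of all 32851 windows. The Fnip1 motif starts 75 bases before its start site (chr11:54438074-54438139, plus strand) and the Rragc motif 112 bases before (chr4:123917291-123917356, plus strand). The motif is in capitals.
Fnip1: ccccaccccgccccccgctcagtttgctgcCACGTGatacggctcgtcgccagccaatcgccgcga
Rragc: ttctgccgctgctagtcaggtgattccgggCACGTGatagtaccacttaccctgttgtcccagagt

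The longer palindrome TCACGTGA (0.974% of all windows), which contains CACGTG, and TCATGTGA on either strand (0.986%) were in none of the 15 windows. These letter matches are a description of the windows and not evidence of binding.

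Total counts assigned to genes were 18548095 to 20264090 in the thiothixene libraries and 10472349 to 22297520 in the DMSO libraries, the lowest being that of mouse b. Thiothixene a, DMSO b and DMSO c stood apart from the other 3 libraries. Across genes, log2 levels correlated at 0.825 between DMSO b and DMSO c and at 0.981 between thiothixene b and thiothixene c. Reads not aligned made up 4.98% of the table's total in thiothixene a and 4.52% in DMSO c, against 1.85% to 2.31% in the others. Of 7 macrophage markers, Csf1r, Adgre1, Cd68, Lyz2, Mertk and Mpeg1 were abundant, whereas Itgam had 1 count in all libraries together, a value whose cause was not tested and which is not read as absence of its RNA. Their summed level was 11334 to 13022 CPM (counts scaled to library size with edgeR's TMM factors) with thiothixene and 10772 to 18471 CPM with DMSO. Of the 6 tested, 5 had a log2 fold change below 0 (median -0.24), and 0 were called. Csf1r was lower in each treated library than in any control (1138, 1200 and 1135 against 1899, 1668 and 1202 CPM). Mpeg1 was higher in each (2888, 2873 and 2737 against 2379, 1799 and 2132 CPM). Of all tested genes 3.88% were higher in each treated library than in any control, and 2.77% were lower in each. Neutrophil markers summed to 255 to 306 CPM with thiothixene and 303 to 664 CPM with DMSO, highest in DMSO b, and stromal markers to 54.8 to 288 and 94.5 to 159 CPM. Of 4 melanocyte markers Tyr had 0 counts and Dct and Mlana 1 each, while the mean of Pmel was 11.1 ± 3.88 CPM in treated and 7.52 ± 2.01 CPM in control libraries (SD, n = 3 each). The 6 mast cell markers summed to 3.11 to 4.69 CPM with thiothixene and 3.57 to 4.78 CPM with DMSO; Mcpt4, Tpsb2 and Fcer1a had 0 counts, and Kit, Hdc and Cpa3 were detected at group means of 0.605 to 2.11 CPM. The 5 osteoclast markers summed to 24.7 to 36.7 CPM in treated and 19.3 to 22.7 CPM in control libraries, with no overlap, and the receptor gene Calcr had 1 count. Among them Itgb3, an integrin subunit gene, measured 13.6, 15.8 and 20.4 CPM in treated and 8.17, 5.58 and 11.1 CPM in control libraries. Its log2 fold change was 1.00 (SE 0.38, not called), and of the 3 osteoclast markers tested it alone had no overlap. Mmp9 measured 9.55, 9.18 and 14.3 CPM in treated and 13.4, 13.1 and 8.53 CPM in control libraries. Its groups overlapped, with a log2 fold change of -0.09 (SE 0.37). The part of these differences in the results was not tested, and in bulk RNA fewer cells of a type and less RNA per cell cannot be told apart.

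With thiothixene, Fnip2 and Rragd were the genes of the group whose levels lay higher in all 3 treated libraries than in all 3 controls, while the 4 MiT/TFE factor genes showed no such separation. None of the 10 passed an adjusted p of 0.05 in edgeR's quasi-likelihood test, in which 0 of 14856 genes (0% of those tested) passed. At an unadjusted p under 0.05 the test held 2 of the 10 on the higher side, where 0.882% of all tested genes stood, and 0 on the lower side (0.841% of all). Groups did not overlap for 2 of the 10 on the higher side, against 3.88% of all tested genes, and for 0 on the lower side, against 2.77%. The same 2 were higher with thiothixene within 3 of 3 mice, as were 7.49% of all genes, and 0 of the 10 were lower in every mouse (6.87% of all). Over all genes 256 had an unadjusted p under 0.05, DESeq2 called 8 genes and limma-voom 0, with 0 of the 10 among the calls of either. Log2 fold changes were above 0 for 7 of the 10, with a median of 0.14, beside 45.3% of all tested genes and a median of -0.04.

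**Figure D1:**
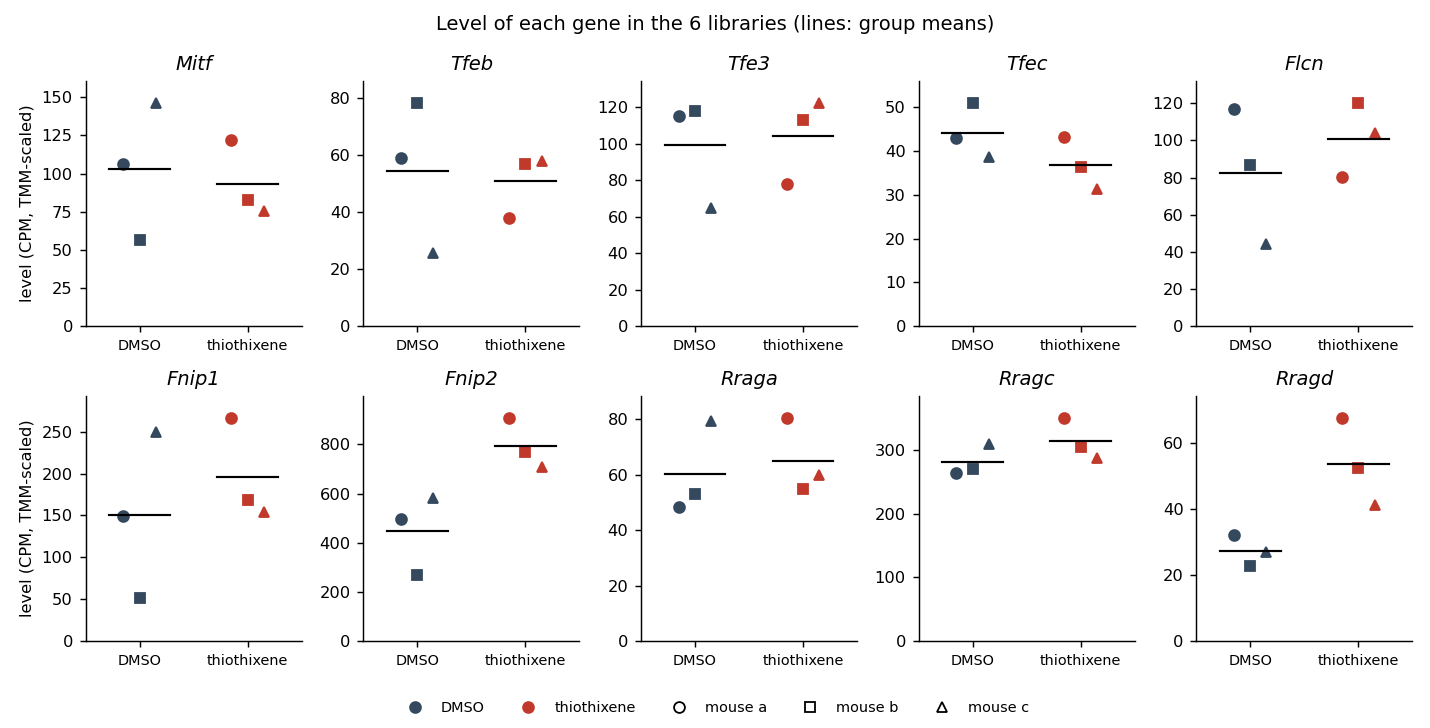
Level in CPM (y axis, TMM-scaled) of each of the 10 genes in the DMSO (dark) and thiothixene (red) libraries, with a symbol per mouse and a line at each group mean. Fnip2 and Rragd have all 3 treated libraries above all 3 controls, and in the other 8 panels the groups overlap.

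Among the factors, Mitf, the founding member that drives melanocyte and osteoclast programs (identifier ENSMUSG00000035158.16, chromosome 6, 97807052 to 98021349, plus strand of GRCm38), measured 122, 82.6 and 75.6 CPM with thiothixene in mice a, b and c. With DMSO it measured 106, 56.3 and 146 CPM. Both the lowest and the highest value thus belonged to DMSO libraries, and the treated values lay between them. Means were 93.4 ± 25 and 103 ± 44.7 CPM (SD, n = 3 each), and the log2 fold change was -0.14 (SE 0.39, 95% interval -1.04 to 0.77).

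Tfeb, a main activator of lysosome and autophagy genes (ENSMUSG00000023990.19, chromosome 17, 47737030 to 47792419, plus strand), measured 38, 57 and 57.8 CPM with thiothixene. Its DMSO values were 59, 78.2 and 25.7 CPM. As for Mitf, the controls enclosed the treated values, but in the opposite order of mice: DMSO c was the lowest for Tfeb and the highest for Mitf. For Tfeb the log2 fold change was -0.09 (SE 0.42, 95% interval -1.06 to 0.88). It turned to 0.01 with the mouse as a block and to 0.27 without DMSO b, neither of which passed.

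Tfe3, which acts beside TFEB on the same kind of targets (ENSMUSG00000000134.18, chromosome X, 7762560 to 7775202, plus strand), measured 78, 113 and 122 CPM with thiothixene. With DMSO the values were 115, 118 and 64.7 CPM. Its order of libraries resembled that of Tfeb, with thiothixene a and DMSO c low. Its log2 fold change was 0.07 (SE 0.34, 95% interval -0.70 to 0.85).

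Tfec, a member of the family found mainly in macrophages (ENSMUSG00000029553.11, chromosome 6, 16833373 to 16898441, minus strand), measured 43.1, 36.4 and 31.3 CPM in treated cultures and 42.9, 50.9 and 38.6 CPM in controls. The groups overlapped, and its libraries spanned a narrower range than those of the other 3 factors. Its log2 fold change, -0.26 (SE 0.28, 95% interval -0.90 to 0.39), was below 0 under all 20 other settings tried, from -0.45 to -0.14, and passed the test in none.

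Per length, the 4 factors shared their summed level differently from library to library. In RPKM, which divides CPM by exon length in kilobases, Mitf took 46.3%, 31.7% and 29.6% of the sum with thiothixene (mice a, b and c) and 36%, 20.3% and 56.1% with DMSO. Mitf was thus by far the largest share in DMSO c, and in DMSO b it was as low as Tfec. The RPKM ratio of Tfe3 to Tfeb was steadier, at 1.26, 1.21 and 1.3 with thiothixene and 1.19, 0.926 and 1.54 with DMSO. These shares and ratios use the length of all annotated exons. With the longest transcript as length the mean over all libraries was highest for Tfeb, at 22.5 RPKM. Mitf then had 20.1, Tfe3 16.1 and Tfec 12 RPKM. Summed over the 4 genes, levels were 281 to 289 CPM with thiothixene and 275 to 323 CPM with DMSO.

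**Figure D2:**
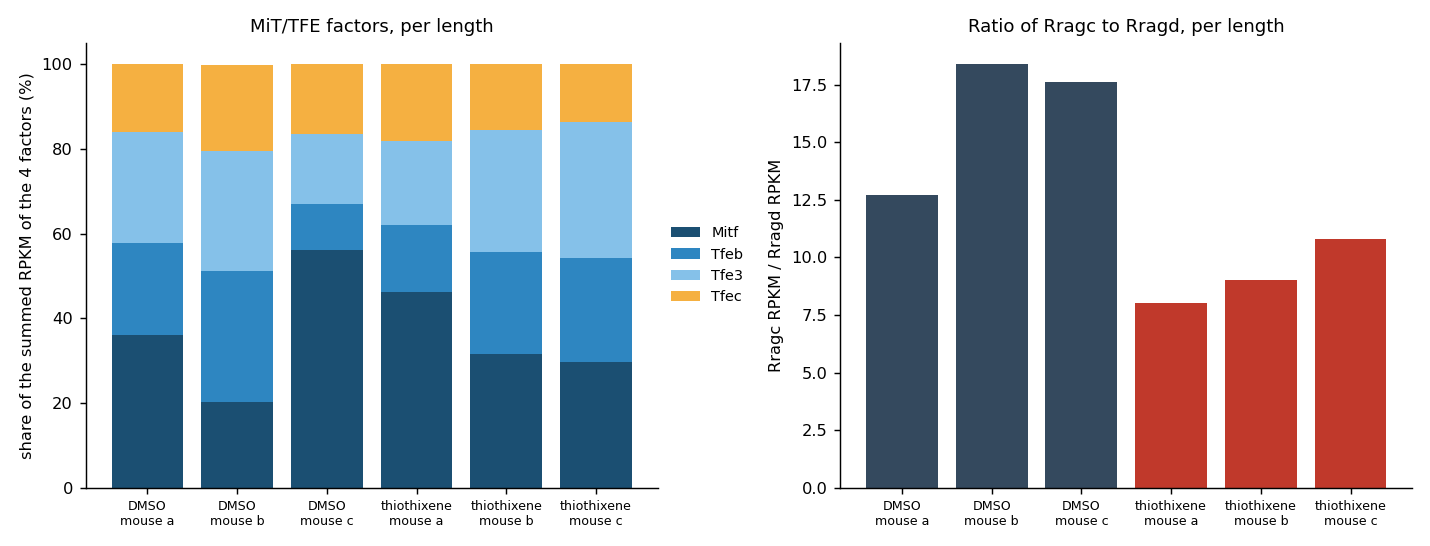
Left, share (%) of each MiT/TFE gene in the summed RPKM of the 4 genes per library; the Mitf share runs from 20.3% to 56.1%, both in DMSO libraries. Right, the ratio of Rragc to Rragd RPKM per library, which is 8.01 to 10.8 in the 3 thiothixene libraries (red) and 12.7 to 18.4 in the 3 DMSO libraries (dark). Lengths are those of all annotated exons, and the size of the shares and of the ratio depends on the length used.

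In the folliculin complex, Fnip2, which encodes a folliculin-interacting protein (ENSMUSG00000061175.13, chromosome 3, 79455974 to 79567796, minus strand), measured 907, 769 and 709 CPM with thiothixene in mice a, b and c. In the controls it measured 495, 268 and 583 CPM. Every treated library stood above every control, and DMSO b was the lowest of all. The means were 795 ± 102 and 448 ± 163 CPM (SD, n = 3 each), a 1.77-fold difference. The log2 fold change was 0.83 (SE 0.34, 95% interval 0.04 to 1.61), with an unadjusted p of 0.0417 in edgeR and an adjusted p of 1, and it ranked 214 of 14856 by p. Within mice the difference was 0.87, 1.52 and 0.28 log2 for a, b and c, so it was smallest in mouse c. Without DMSO b it was 0.56.

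Fnip1, the paralog of Fnip2 and the other partner of folliculin (ENSMUSG00000035992.16, chromosome 11, 54438199 to 54518235, plus strand), measured 266, 168 and 154 CPM in treated cultures and 149, 52 and 250 CPM in controls. Its libraries were spread more widely than those of Fnip2, and DMSO b was again the lowest. The log2 fold change was 0.38 (SE 0.53, 95% interval -0.83 to 1.59). Without DMSO b it turned to -0.03. Per length, Fnip2 exceeded Fnip1 in every library, by 2.91 to 3.92 times with thiothixene and 1.99 to 4.38 times with DMSO.

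Flcn, the folliculin gene (ENSMUSG00000032633.13, chromosome 11, 59791408 to 59810016, minus strand), measured 80.1, 120 and 104 CPM with thiothixene. Its DMSO values were 117, 86.6 and 44.3 CPM. The DMSO library of mouse c was the lowest and that of mouse a among the highest, so the groups overlapped. Flcn had a log2 fold change of 0.29 (SE 0.39, 95% interval -0.59 to 1.18), and without DMSO c it was -0.01.

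Among the Rag GTPases, Rragd, which encodes RagD (ENSMUSG00000028278.15, chromosome 4, 32983037 to 33022180, plus strand), measured 67.6, 52.5 and 41.2 CPM with thiothixene. With DMSO it measured 32.2, 22.7 and 27.1 CPM. The lowest treated library stood above the highest control, and the control values were close together. Means were 53.8 ± 13.3 and 27.4 ± 4.79 CPM (SD, n = 3 each), a 1.96-fold difference. The log2 fold change was 0.97 (SE 0.31, 95% interval 0.26 to 1.68). Its unadjusted p was 0.013 in edgeR, the smallest of the 10 genes and rank 65 of 14856, with an adjusted p of 1. Differences within mice a, b and c were 1.07, 1.21 and 0.60 log2. Across fits that left out a library or a mouse the log2 fold change was 0.78 to 1.14.

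Rragc, which encodes RagC, the alternative to RagD in the heterodimer (ENSMUSG00000028646.17, chromosome 4, 123917446 to 123936997, plus strand), measured 350, 305 and 287 CPM with thiothixene. The DMSO libraries held 264, 270 and 309 CPM. These values lay close together, with an overlap between the groups. Its log2 fold change was 0.16 (SE 0.26, 95% interval -0.43 to 0.75). The annotation places a gene on the opposite strand over an Rragc exon, and no source used here says whether strand was used in counting. Per length, Rragc exceeded Rragd by 8.01, 9.01 and 10.8 times with thiothixene and by 12.7, 18.4 and 17.6 times with DMSO. The ratio was thus lower in each treated library than in any control. It holds the Rragd values given above and is not a separate result. The other ratios computed between related genes overlapped between the groups.

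Rraga, which encodes RagA (ENSMUSG00000070934.7, chromosome 4, 86575668 to 86577285, plus strand, a gene with a single annotated transcript), measured 80.4, 54.9 and 59.8 CPM in treated cultures and 48.5, 53.1 and 79.3 CPM in controls. The groups overlapped almost fully, and the log2 fold change was 0.11 (SE 0.31, 95% interval -0.61 to 0.83). Its paralog Rragb, not one of the 10, was 24.8 to 94.7 times lower per length, at 0.889 ± 0.428 RPKM (SD over all 6 libraries).

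**Figure D3:**
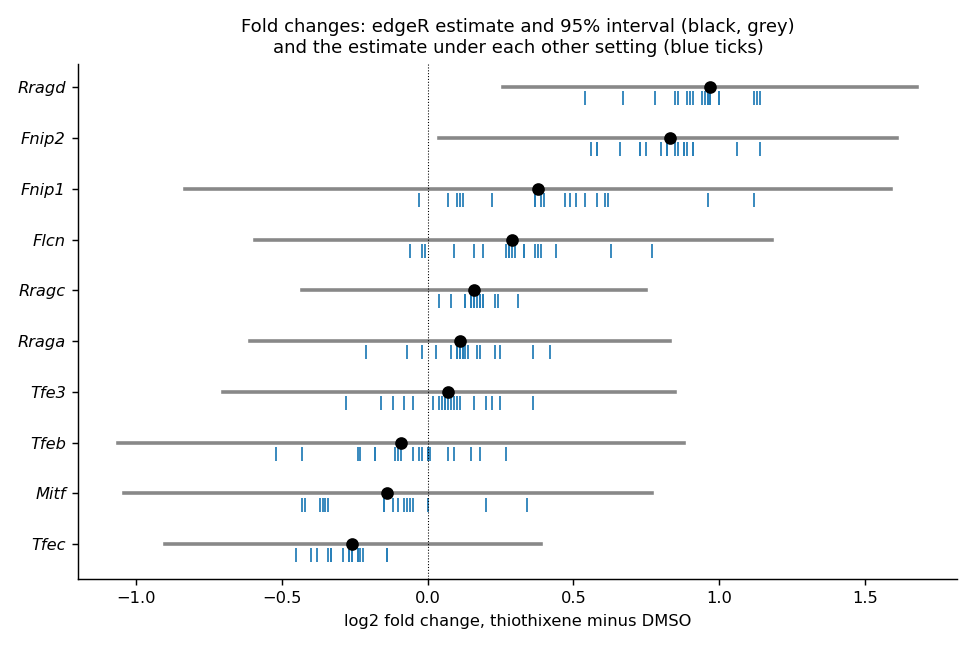
Log2 fold change, thiothixene minus DMSO (x axis), for each gene: edgeR's estimate (black), its 95% interval (grey) and the estimates under the other 20 settings (blue ticks). The intervals of Rragd and Fnip2 lie above 0 before adjustment for the number of genes tested, and the other 8 include 0.

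Per length over all 6 libraries, Rragc was the most abundant of the 10 at 89 ± 9.41 RPKM (SD), followed by Fnip2 at 74.3 ± 26.9, Rraga at 38.7 ± 8.54 and Fnip1 at 24.3 ± 10.9 RPKM. Then came Flcn at 21.2 ± 6.5, Mitf at 15.8 ± 5.29, Tfe3 at 11 ± 2.61, Tfeb at 9.28 ± 3.23, Rragd at 7.84 ± 3.28 and Tfec at 7.24 ± 1.2 RPKM. Only the steps from Fnip2 to Rraga and from Rraga to Fnip1 exceeded the SD of both neighbours, so the order of the other neighbours is not distinguishable. The order of the means also differed between treatments. With thiothixene Fnip2 (95 ± 12.2 RPKM) and Rragc (94 ± 9.63) were level, and Rragd (10.4 ± 2.57) stood above Tfec (6.6 ± 1.05). Rragd and Tfeb (8.98 ± 1.97) were not distinguishable there, as Rragd was higher in mouse a (13.1 against 6.7) and lower in mouse c (7.96 against 10.2). With DMSO Rragd had the lowest mean, at 5.29 ± 0.926 RPKM (SD, n = 3 each). The lower part of the order also depends on the length used: with the longest transcript in place of all exons Tfeb was 6th, at 22.5 ± 7.82 RPKM, and Rragd last, at 8.02 ± 3.36 RPKM.

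Most of the 10 genes, like most of all tested genes, did not move one way in all animals. Over all tested genes 7.49% were higher and 6.87% lower with thiothixene within 3 of 3 mice. Mitf differed by 0.20, 0.55 and -0.94 log2 in mice a, b and c, and Tfeb by -0.63, -0.46 and 1.17. For these genes mouse c went against the other mice, in opposite directions for the pair. Tfe3 (-0.56, -0.07 and 0.92) followed the order of Tfeb, and Fnip1 (0.84, 1.69 and -0.70) and Rraga (0.73, 0.05 and -0.41) that of Mitf in having mouse c alone below 0.

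**Figure D4:**
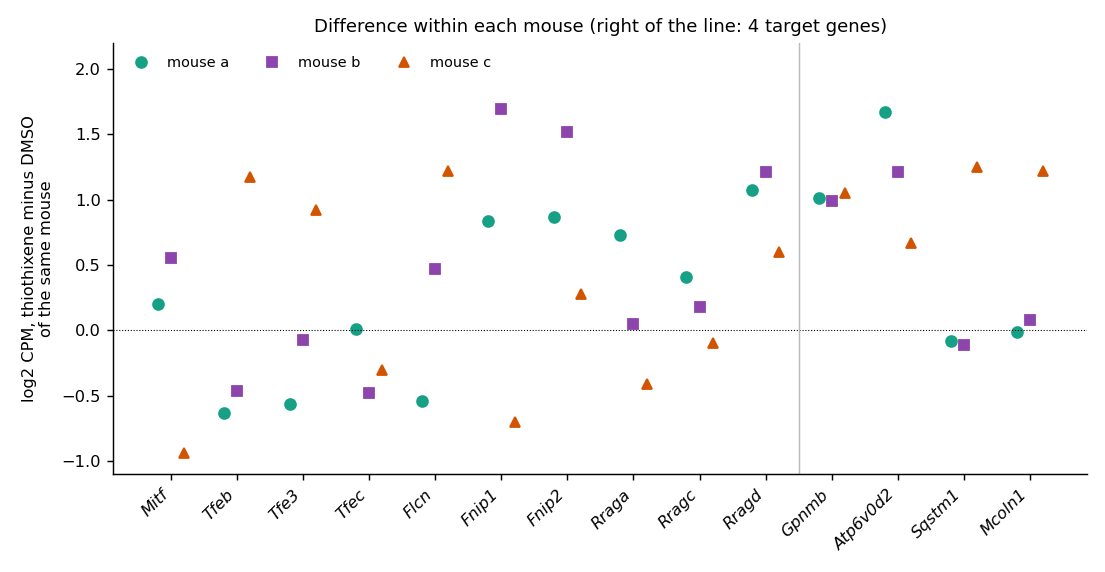
Log2 CPM of thiothixene minus DMSO within each mouse (y axis; a circle, square and triangle for mice a, b and c) for the 10 genes and 4 target genes. Rragd, Fnip2, Gpnmb and Atp6v0d2 are above 0 in all 3 mice, while Mitf, Fnip1 and Rraga have mouse c below 0 and Tfeb and Tfe3 have mouse c alone above 0.

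The opposite orders of the libraries ran with base composition. GC content of the longest transcript was 63.2% for Tfeb, 54.9% for Flcn and 52.1% for Tfe3, and 43.4% for Mitf and 38.9% for Fnip1. In DMSO c, Tfeb, Flcn and Tfe3 were 0.95, 0.98 and 0.61 log2 below their own means over the 6 libraries (deviations of -0.95, -0.98 and -0.61), and Mitf and Fnip1 were 0.64 and 0.70 above. The medians over tested genes lay in the same directions. With the 98% of tested genes that have a GC value ordered by it and put in 5 groups of 2913, the median deviation in that library was 0.51 in group 1 (lowest GC) and -0.85 in group 5 (highest). In DMSO b the same medians were -0.54 and 0.68, with Fnip1 at -1.56, Mitf at -0.73 and Tfeb at 0.66. Not every gene followed its group: in DMSO b Tfec (40.3% GC) was at 0.35 and Flcn at -0.01, where the medians of their groups were -0.54 and 0.33. Fnip2 and Rragd were at -1.12 and -0.73 there, below their groups' medians of -0.04 and -0.31. Thiothixene a fell with GC content like DMSO c, with medians of 0.32 in group 1 and -0.4 in group 5. In thiothixene a Fnip2 and Rragd were at 0.64 and 0.84, above their groups' medians of 0.05 and 0.2. Medians of thiothixene b, thiothixene c and DMSO a rose less than in DMSO b, from -0.09, -0.1 and 0.01 to 0.24, 0.31 and 0.19. Rragd (46.5% GC) and Fnip2 (49.2%) lie near the middle, where the medians of groups 2 and 3 were between -0.31 and 0.30 in all libraries. With offsets per library for GC content and length in edgeR, the log2 fold change was 0.90 for Rragd and 0.73 for Fnip2 (adjusted p 0.82 and 0.978), and 0.89 and 0.75 with the mouse as a block as well. Tfe3 turned to -0.12 with those offsets.

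**Figure D5:**
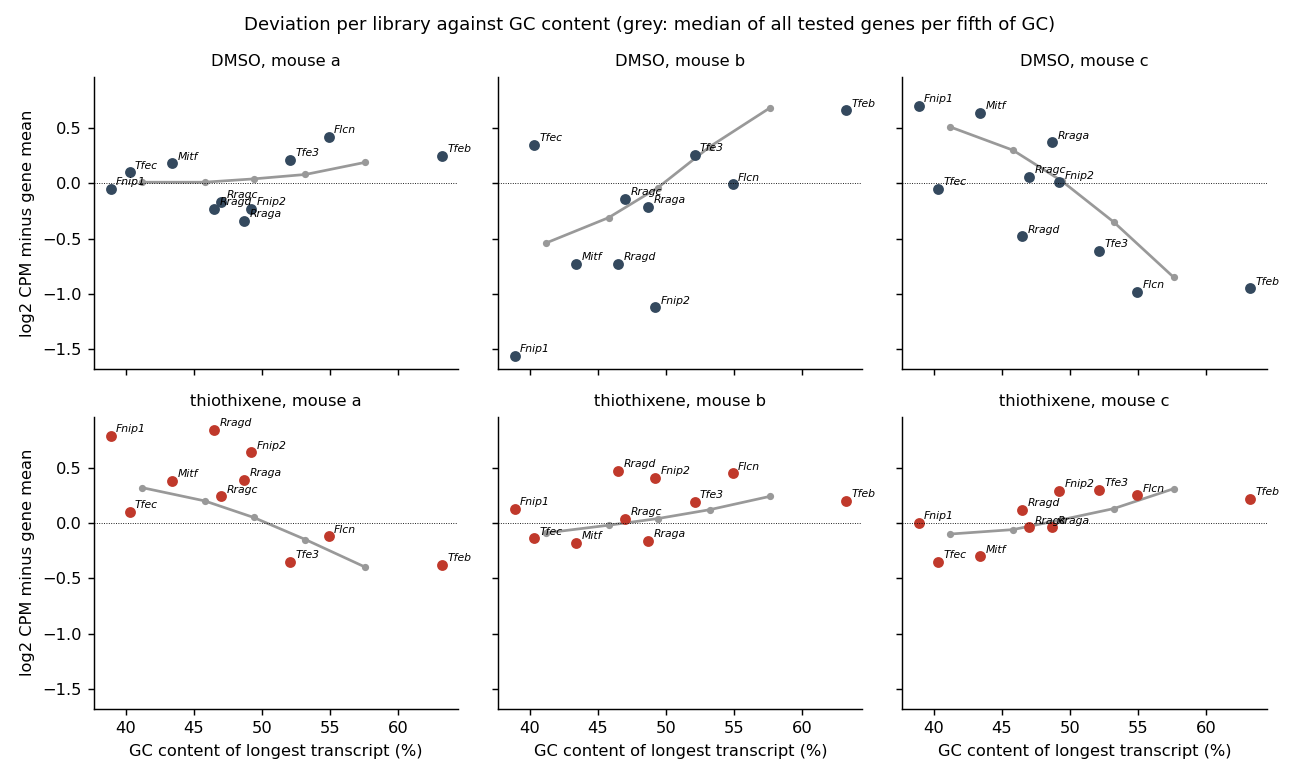
Deviation of each gene from its own mean log2 CPM (y axis) in each library against the GC content of its longest transcript (x axis, %), with grey points for the median of all tested genes in each of 5 groups by GC content. The grey line falls with GC content in DMSO c and thiothixene a and rises most in DMSO b. Tfeb, Tfe3, Mitf and Fnip1 lie on the same side of 0 as the line in each of these libraries.

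Leaving out the 3 libraries that stood apart left thiothixene b and c against DMSO a alone, so that treatment and mouse cannot be told apart and the lone control is assumed to vary like the treated libraries. In that fit 6.99% of 15807 genes passed, and 2 of the 10 did. Fnip2 passed on the higher side, with a log2 fold change of 0.58 and edgeR's adjusted p of 0.000421 (0.2 to 1 under the other settings). Mitf passed on the lower side, at -0.42 with an adjusted p of 0.039 (0.661 to 1 under the others). Rragd was at 0.54 with an adjusted p of 0.0579. Of the other named regulators and targets, Gpnmb, Atp6v0d2, Sqstm1, Lamtor3, Ctsb, Psap and Clcn7 passed there on the higher side and Sesn1 on the lower side.

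The genes whose pattern over the 6 libraries was most like each factor were ranked by the root mean square difference of centred log2 CPM. For Mitf these were Hps3 (0.036), mt-Co1 (0.042) and Topbp1 (0.0596), and for Tfeb Cc2d1b (0.0465), Tnfrsf1a (0.0505) and Rangap1 (0.0531). Tfe3 was closest to Evi5l (0.036), Pde1b (0.0492) and Dnm2 (0.0516), and Tfec to Hsd17b11 (0.0429), Laptm4a (0.0508) and Anapc5 (0.0541). Among the 10 genes, Tfeb and Tfe3 differed by 0.216, whereas Mitf and Tfeb differed by 0.952. The libraries share mice, depth and the GC pattern above, so these distances describe the libraries only.

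Of 22 genes of the Ragulator and the amino acid sensing complexes upstream of the Rags, all tested, 11 were above 0 and 11 below, with a median log2 fold change of -0.03 and 0 past the adjusted threshold. Over all tested genes 45.3% were above 0, with a median of -0.04. Lamtor1 and Lamtor3, Ragulator subunits that anchor the Rags, were at -0.33 (SE 0.54) and 0.27 (SE 0.28). Sesn1, a sestrin that restrains mTORC1, measured 146, 111 and 89.6 CPM in treated cultures and 195, 160 and 164 CPM in controls. It was lower in each treated library than in any control, as were 2.77% of all tested genes. Its log2 fold change of -0.58 (SE 0.29) did not pass. Of 9 mTORC1 and TSC-Rheb genes 6 were above 0 (median 0.16, 0 passed), and 2, Rptor and Tsc1, had no overlap on the higher side. Over all tested genes 3.88% had no overlap on that side. Rptor, which encodes the raptor subunit, was at 0.30 (SE 0.26), Rheb, the activating GTPase, at 0.01 (SE 0.29), and Tsc2, its inhibitor, at 0.16 (SE 0.28). Of 15 genes for calcineurin, 14-3-3 proteins and other enzymes that act on the factors 7 were above 0, with a median of -0.01 and 0 passed. The 14-3-3 genes Ywhae, Ywhag and Ywhah, whose proteins hold phosphorylated factors in the cytosol, were at -0.22 (SE 0.33), 0.17 (SE 0.26) and -0.14 (SE 0.25).

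Known targets of the factors were counted from 2 lists. Of 32 lysosome and autophagy targets 21 were above 0, with a median of 0.16 and 0 passed. Over all tested genes 45.3% were above 0, with a median of -0.04. The abundant members Ctsb (cathepsin B), Psap (prosaposin) and Lamp1 were at 0.14 (SE 0.31), 0.49 (SE 0.32) and 0.10 (SE 0.26). Mcoln1, a lysosomal calcium channel, and Sqstm1, an autophagy receptor, were at 0.34 (SE 0.36) and 0.31 (SE 0.36). Within mice a, b and c Mcoln1 differed by -0.01, 0.08 and 1.22 log2 and Sqstm1 by -0.08, -0.11 and 1.25. For both, DMSO c was the lowest library, at 34 CPM for Mcoln1 and 388 CPM for Sqstm1. Without DMSO c their log2 fold changes were 0.05 and 0.07. Of 7 targets in macrophages and osteoclasts 6 could be tested and 5 of these were above 0, with a median of 0.48 and 0 passed in edgeR. No overlap on the higher side was seen for 3 (Gpnmb, Atp6v0d2 and Clcn7), against 3.88% of all tested genes. Gpnmb, a lysosomal glycoprotein gene, differed by 1.01, 0.99 and 1.05 log2 within mice a, b and c, and Atp6v0d2, a proton pump subunit gene, by 1.67, 1.21 and 0.67. In limma-voom with library quality weights Gpnmb passed with a log2 fold change of 1.09 and an adjusted p of 0.0277. That fit gave thiothixene b, thiothixene c and DMSO a weights of 6.227, 2.746 and 2.283. Thiothixene a, DMSO b and DMSO c had weights of 0.5369, 0.2092 and 0.2281. The call thus leaned on the same libraries as the fit with DMSO a as lone control. In DESeq2 the adjusted p of Gpnmb was 0.115, and edgeR on all 6 libraries did not call it. The summed osteoclast markers given above were also higher in each treated library than in any control, where Itgb3 separated and Mmp9 overlapped. What part these markers have in the target values was not tested. Clcn7 and Ostm1, which together form a lysosomal chloride exchanger, were at 0.50 (SE 0.31) and 0.21 (SE 0.26).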

How the data were processed

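Paired-end RNA sequencing covered 3 mice with each treatment, which the labels call biological replicates. The values are raw counts for each gene, as the authors deposited them. Per the submitters' processing notes the build was mm10 and the tools included STAR 2.7.11b, Trim Galore 0.6.10, FastQC 0.11.8 and DESeq2 1.44, with no roles stated. How reads were counted, on which strand and against which annotation is not given in the sources used here. The 5 rows that name no gene stayed out, among them reads outside genes at 43.07% to 44.35% of each library's total. Symbols came from a separate reference of gene names, where 52073 identifiers matched without version and 4618 did not. Positions, exon lengths and GC content came from GENCODE M21 (GRCm38).

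All genes were fitted with edgeR 4.0.16 (R 4.3.3), robust quasi-likelihood, TMM scaling, its expression filter, treatment as sole term and Benjamini-Hochberg adjustment at 0.05. Standard errors were derived from the fold change and its F statistic. Alternatives used DESeq2 1.42.0 and limma 3.58.1. Log2 CPM for patterns and deviations used a prior count of 2. The titles name the mouse of each library, and each of the 3 mice has a library of both treatments, so libraries are paired by mouse per the labels. The values do not show that pairing in every mouse: deviations from group means correlated at -0.131, 0.318 and -0.301 for mice a, b and c. The genes, lists and settings were chosen with earlier results of these data known; the offsets for GC content and length were added after the data were seen. Besides the 10 genes, the text names Rragb, 4 chosen targets, the 3 most abundant members of each list and the 3 most similar genes per factor. Other genes named were chosen after their values were seen. The edgeR script was tested on simulated data, drawn with a common dispersion for all genes. Of 50 genes planted at each size, it recovered 2 at a log2 fold change of 1, 18 at 2, 45 at 3 and 49 at 4. It made 4 false calls. A gene that was not called is therefore not shown to be unchanged.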

Additional observations from a re-analysis of the deposited data

How the results depend on the processing

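Of 200 comparisons of the 10 genes across 20 other settings, 176 kept direction and side of the threshold, 22 changed sign and 2 gained a call. The 0 genes called in edgeR became 1 without a low-count filter, 8 in DESeq2, 1 in DESeq2 with the replicate block, 25 in limma-voom with library quality weights and 1105 in the fit of 3 libraries, where 2 of the 10 genes passed; in all other settings 0 of the 10 passed. The replicate block in edgeR, by mouse, called 0 genes and changed no call. Rragd, Fnip2, Rragc and Tfec kept their direction in all settings. Of the other named genes Gpnmb passed with quality weights and 8 passed in the fit of 3 libraries. The cause of the sign changes was not tested. Log2 fold changes turned for Tfeb to 0.01 with the block, 0.07 in limma-voom and 0.00 with quality weights, for Tfe3 to -0.12 with GC and length offsets and -0.08 with the block added, and for Flcn to -0.06 in the fit of 3 libraries. Rheb turned to -0.01 with RLE and in DESeq2, -0.00 with the stricter filter, -0.17 with the offsets and -0.09 with the block added. Tsc2 turned to -0.01 and -0.02 and Ctsb to -0.02 with the offsets. In limma-voom Rragb turned to -0.07, and with quality weights Rragb turned to -0.81, Lamtor1 to 0.11 and Ywhae to 0.05. In the fit of 3 libraries Rragb was at -0.92, Lamtor1 at 0.15, Ywhae at 0.12 and Ywhah at 0.04. Leaving out a library or a mouse gave ranges of -0.43 to 0.34 for Mitf, -0.52 to 0.27 for Tfeb, -0.28 to 0.36 for Tfe3, -0.02 to 0.77 for Flcn, -0.03 to 1.12 for Fnip1, -0.21 to 0.42 for Rraga, -0.44 to 0.41 for Rragb, -0.24 to 0.23 for Rheb, -0.87 to 0.35 for Lamtor1, -0.01 to 0.42 for Lamtor3, -0.03 to 0.45 for Ctsb, -0.07 to 0.18 for Lamp1, -0.09 to 0.62 for Sqstm1 and -0.63 to 0.10 for Ywhae. Depth was lowest in DMSO b, and Rragb was the thinnest of the genes whose fold change is given outside the marker lists.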
